A study of Mus musculus with 2 samples.

Results

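The transcription factor Nrf2, encoded by *Nfe2l2*, its inhibitor *Keap1*, and 8 target genes were followed through the cell classes of the mouse retina. The 8 targets were *Hmox1*, *Nqo1*, *Gclc*, *Gclm*, *Txnrd1*, *Srxn1*, *Slc7a11*, and *Gsr*. All 10 genes were taken by symbol from the 32285 features of the count tables, and each symbol matched 1 feature. The mice were male C57BL/6J mice aged 7 months, either WT or ND6 mutant. The mutants carry, throughout the body, a missense mutation of the mtDNA gene ND6 that is linked in patients to Leber hereditary optic neuropathy, a blindness that begins with the loss of retinal ganglion cells. The line was derived from female embryonic stem cells whose mitochondria had been replaced, and it is kept through mutant females. Dissected retina was digested with enzymes, and 1 droplet-based 3′ scRNA-Seq library was analysed for each genotype, called the WT and the mutant library. How many mice gave each library is not given in the sources used here.

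Nrf2 is the main activator of the antioxidant genes of a cell. Keap1 holds it in the cytosol and presents it to a Cul3 ubiquitin ligase for degradation, and oxidation of Keap1 cysteines frees newly made Nrf2 to enter the nucleus, where it pairs with a small Maf protein on antioxidant response elements. Since this control acts on the protein, the mRNA of *Nfe2l2* does not measure Nrf2 activity, and the target mRNAs are the usual readout. In the retina, photoreceptors and the retinal pigment epithelium (RPE) consume much oxygen and carry a high oxidative load.

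The element that Nrf2 and its Maf partner bind holds the core TGACNNNGC or TGAGNNNGC. Of the 10 genes, 7 had a RefSeq promoter window (GRCm38.p6), and in 5 of them, *Nfe2l2*, *Gclm*, *Txnrd1*, *Srxn1*, and *Slc7a11*, the 250 bases before a start site held either core on either strand. *Keap1* and *Nqo1* had none in these letters, and *Hmox1*, *Gclc*, and *Gsr* were not in the table. Of all 32851 windows, 10.2% held the first core, 14.4% the second, and 23.0% either one. A match describes the sequence and is not a measured binding site. The *Srxn1* and *Gclm* windows are shown because one target stood higher in the mutant library and the other did not. The first lies at chr2:152105274-152105523 and the second at chr3:122245307-122245556, both on the plus strand, written 5′ to 3′ with the matched bases in capitals.
Srxn1: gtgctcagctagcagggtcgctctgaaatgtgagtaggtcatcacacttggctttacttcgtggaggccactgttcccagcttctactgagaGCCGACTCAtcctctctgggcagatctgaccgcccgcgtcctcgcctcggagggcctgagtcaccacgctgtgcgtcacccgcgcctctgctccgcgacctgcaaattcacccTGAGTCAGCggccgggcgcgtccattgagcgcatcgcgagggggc
Gclm: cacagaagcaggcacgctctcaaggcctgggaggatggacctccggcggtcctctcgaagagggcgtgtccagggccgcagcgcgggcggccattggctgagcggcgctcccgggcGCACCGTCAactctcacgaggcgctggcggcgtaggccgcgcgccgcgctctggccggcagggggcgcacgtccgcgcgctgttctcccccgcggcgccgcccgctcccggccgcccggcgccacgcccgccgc
The *Srxn1* window held 2 matches, which began 158 and 45 bases before the start site, and the *Gclm* window held 1, which began 134 bases before it.

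After removal of barcodes with 400 or fewer unique molecular identifiers (UMIs), 200 or fewer genes, or over 20% of UMIs from mtDNA-encoded genes, 12529 WT and 18395 mutant cells with 54524401 and 62949610 UMIs remained. The mtDNA limit removed 45.9% of WT and 17.3% of mutant barcodes that had passed the other limits, the median cell held 1878 and 1416 UMIs, and 59 barcodes were kept in both libraries. Cells were clustered without the genes studied here, and clusters were called "X-like" from marker genes. Rod-like cells numbered 9666 WT and 13148 mutant, cone-like cells 615 and 1121, bipolar-like cells 234 and 635, amacrine-like cells 77 and 302, Müller-like cells 36 and 88, macrophage or microglia-like cells 263 and 145, and RPE-like cells 327 and 961. None of the marker genes of a class was at 0 in either library, except 1 of the 8 RPE markers, which was at 0 in both. A cluster rich in *Glul* and *Nefl* (1057 and 1421 cells) stayed unnamed, and a cluster with hemoglobin mRNA (254 and 574 cells), which mostly dissolved into others at a finer resolution, was not interpreted. Under the mtDNA limit no cluster was named as retinal ganglion cells. Without that limit 1 cluster was, with 142 WT and 61 mutant barcodes, 6 of 8 markers raised, and a median mtDNA share of 41.6%. Its levels are not reported here. The amacrine-like cells also carried ganglion cell markers, which summed to 1822 CPM (UMIs of the genes per 1000000 UMIs of the class) in the WT and 775 CPM in the mutant library. Amacrine markers summed to 1933 and 1545 CPM there. With 1 library per genotype there was no test between genotypes, and every interval given is a 95% interval for counting error only, exact Poisson for a level and exact conditional for a ratio.

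Over all cells, *Srxn1* stood higher in the mutant library, *Hmox1* and *Nqo1* stood lower, and *Nfe2l2*, *Keap1*, and *Txnrd1* were slightly higher. The other 4 genes had intervals that included a ratio of 1. Ratios are log2 values of the mutant over the WT level, and a gene was counted as past the fold at 0.5 or more in either direction, given at least 20 UMIs over both libraries. By that rule 1 of the 10 genes was higher and 2 were lower. Among all 15888 genes with as many UMIs, 21.6% were higher and 8.78% lower. The median of the 8 targets was 0.01, and that of all genes 0.07. The median of the targets thus lay close to that of all genes, and the 3 genes past the fold did not share a direction.

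**Figure D1:**
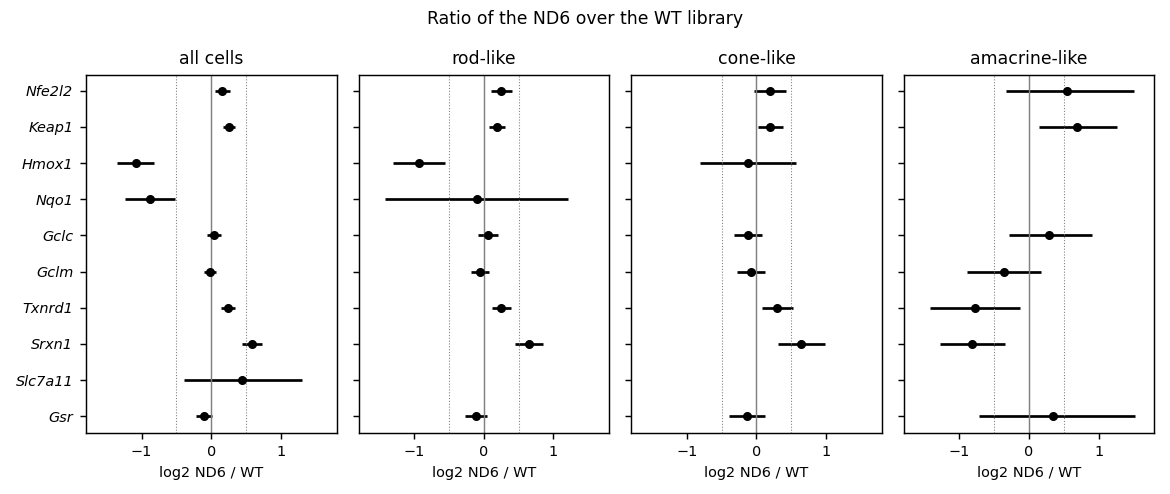
Log2 ratio of the mutant (ND6) over the WT library for each gene with at least 20 UMIs (rows), over all cells and in rod-like, cone-like, and amacrine-like cells. Points are ratios of CPM, bars 95% counting intervals, and dotted lines mark 0.5 in either direction; *Srxn1* lies to the right in the first 3 panels and to the left in the amacrine-like cells.

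*Nfe2l2* (chromosome 2, 75675513 to 75704641, mm10) was measured at 22.5 CPM in the WT and 25.1 CPM in the mutant library, from 1229 and 1581 UMIs. The log2 ratio was 0.16 (0.05 to 0.26), a small difference. Macrophage or microglia-like cells had the highest level in both libraries, with 95.7 CPM (WT) and 106.8 CPM (mutant), and the 2 libraries did not differ there beyond counting error (0.16, -0.44 to 0.73). Müller-like cells came second, with 59.0 CPM in the WT and 29.7 CPM in the mutant library, the latter from only 10 UMIs. Endothelial markers summed to 616 CPM (WT) and 890 CPM (mutant) in this class, and rod markers to 40326 and 39289 CPM. Müller markers summed to 8045 and 6984 CPM. The part of endothelial and rod RNA in the Müller-like levels of the 10 genes was not tested. The median Müller-like cell held 10130 UMIs in the WT and 1662 in the mutant library, and the part of depth in the Müller-like values was not tested. In rod-like cells the level was 19.99 CPM (WT) and 23.8 CPM (mutant), with a ratio of 0.25 (0.10 to 0.40). It was higher in the mutant library in each of the 5 rod-like clusters with enough UMIs (0.27 to 0.62). Some cluster intervals included a ratio of 1, such as 0.27 (-0.16 to 0.71). The clusters are parts of 1 library per genotype. *Gclc*, at 0.06 (-0.08 to 0.20) in rod-like cells, was also higher in each of 6 clusters (0.04 to 0.67). A shared sign over rod-like clusters thus does not by itself set a gene apart. Cone-like (24.4 and 27.8 CPM), RPE-like (28.9 and 28.9 CPM), amacrine-like (19.02 and 27.7 CPM), and bipolar-like cells (14.9 and 17.8 CPM) lay near the rods. Ordered by the mean of both libraries, 5 of the 6 pairs of neighbouring classes had overlapping intervals in each library. The pair that did not overlap was Müller-like above RPE-like cells in the WT library, and macrophage or microglia-like above Müller-like cells in the mutant library.

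The macrophage or microglia-like cells were made of 2 clusters. One was led by *Ccl4* and *Ccl3*, chemokine genes that microglia switch on when stimulated, and it held *Nfe2l2* at 165.6 CPM in 48 WT cells and 167.6 CPM in 26 mutant cells. The other, led by *Igkc* and *Tyrobp*, held 39.5 CPM in 215 WT cells and 69.7 CPM in 119 mutant cells (0.82, -0.26 to 1.87). In that cluster all 8 macrophage or microglia markers were raised, and so were all 4 T cell markers, and *Igkc* is an immunoglobulin gene of B cells, so RNA of lymphocytes was present in it. T cell markers summed to 60.0 CPM in the WT and 54.9 CPM in the mutant library over the class, beside 13056 and 17311 CPM of its own markers. The chemokine-rich cluster thus had the highest measured *Nfe2l2* level of all clusters in both libraries, with a ratio of 0.02 (-0.75 to 0.74) between them. In the WT library its interval (127.5 to 211.4 CPM) lay above that of the other cluster (23.8 to 61.7 CPM). In the mutant library the 2 intervals overlapped (105.1 to 253.8 CPM from 22 UMIs, and 39.0 to 115.0 CPM from 15 UMIs), so the order is less certain there.

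*Keap1* (chromosome 9, 21229730 to 21239361) was measured at 36.1 CPM (WT) and 43.1 CPM (mutant) over all cells, with a ratio of 0.26 (0.17 to 0.34). Across the 7 classes it ranged from 33.9 to 52.3 CPM in the WT library and from 28.3 to 76.7 CPM in the mutant library. All 6 pairs of neighbouring classes overlapped in the WT library, and 4 of the 6 in the mutant library. The ratio was 0.19 in rod-like (0.07 to 0.30) and in cone-like cells (0.02 to 0.37). The largest difference was in amacrine-like cells, with 47.6 CPM (WT, 35 UMIs) and 76.7 CPM (mutant, 147 UMIs) and a ratio of 0.69 (0.15 to 1.27). The unnamed cluster rich in *Glul* and *Nefl* held 32.9 CPM (WT, 106 UMIs) and 49.7 CPM (mutant, 241 UMIs), a ratio of 0.59 (0.26 to 0.94). A noncoding gene, Gm16754, overlaps *Keap1* on the opposite strand.

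**Figure D2:**
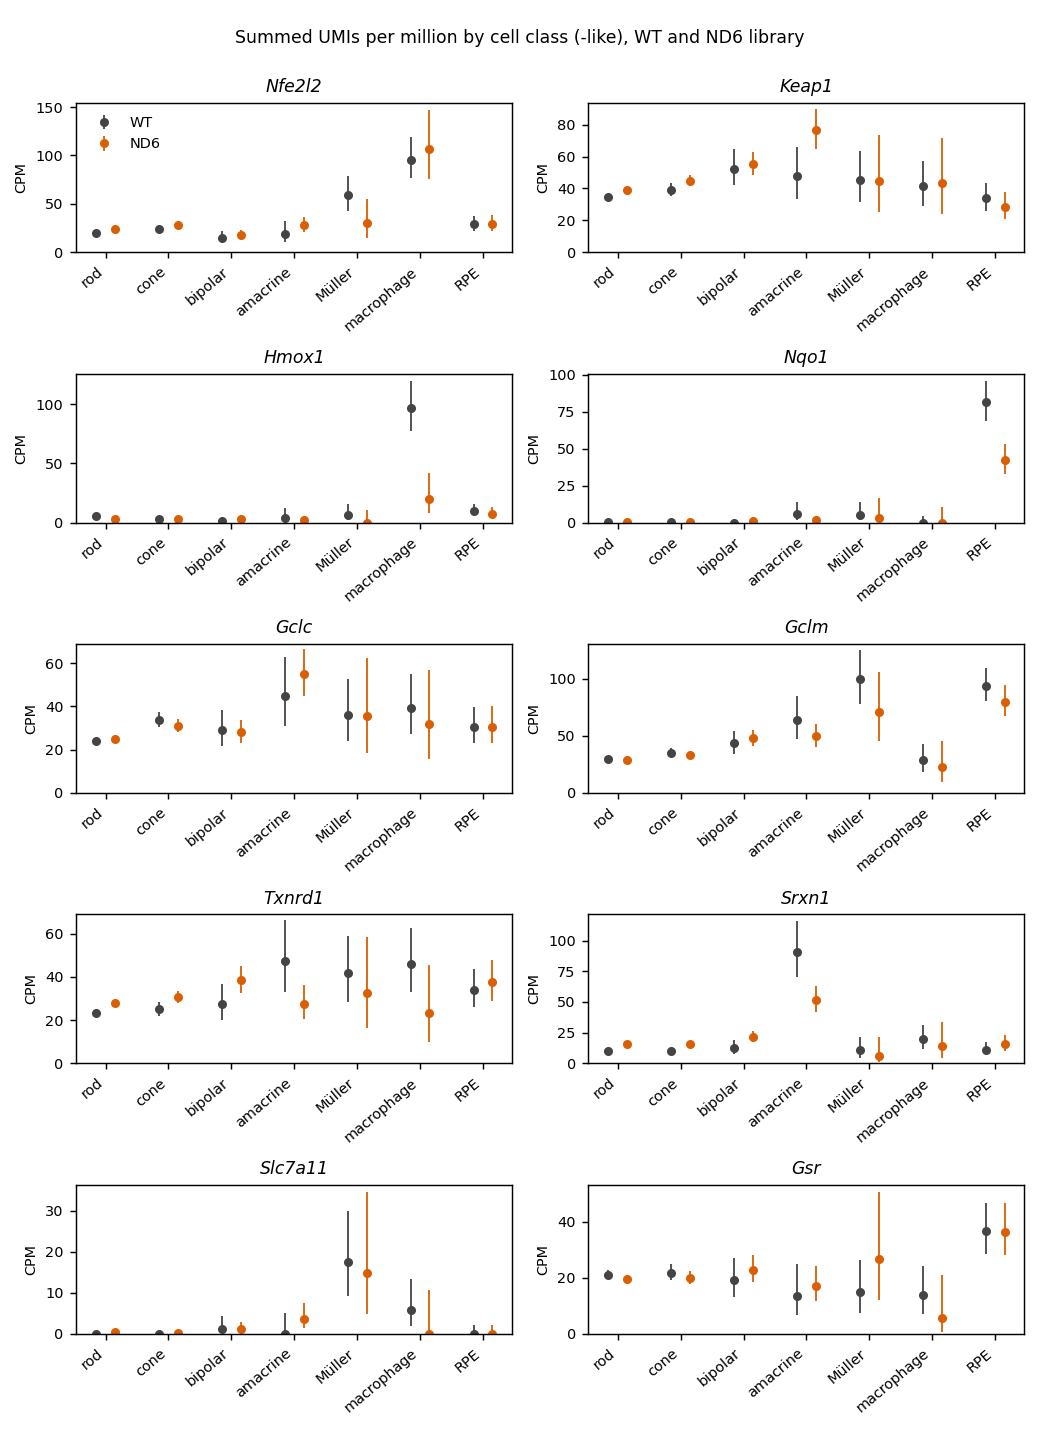
Level of each of the 10 genes (CPM, y axis, linear from 0) in 7 cell classes of the WT (grey) and the mutant library (ND6, orange), with 95% Poisson intervals; "macrophage" stands for macrophage or microglia-like cells. *Hmox1* and *Nfe2l2* peak in macrophage or microglia-like cells, *Nqo1* in RPE-like, *Slc7a11* in Müller-like, and *Srxn1* in amacrine-like cells, in both libraries. Levels are read across classes of 1 gene, not between genes.

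*Hmox1* (chromosome 8, 75093621 to 75100589) encodes heme oxygenase 1, the inducible enzyme that degrades heme. It was measured at 6.24 CPM in the WT and 2.94 CPM in the mutant library, from 340 and 185 UMIs. The ratio was -1.09 (-1.35 to -0.82), the lowest of the 10 genes. Over the named classes of both libraries pooled, its range of log2(CPM + 10) was the widest of the 10. Macrophage or microglia-like cells held 96.8 CPM in the WT library (84 UMIs) and 20.2 CPM in the mutant library (7 UMIs), a ratio of -2.26 (-3.62 to -1.15). Of those, 78 WT and 6 mutant UMIs fell in the chemokine-rich cluster, where the level was 201.8 and 45.7 CPM (-2.14, -3.63 to -0.96). The *Nfe2l2* ratio of that cluster was 0.02, with a wide interval (-0.75 to 0.74), so equal *Nfe2l2* was not established there. Removing from each library the cell with the most *Hmox1* UMIs, of which the WT cell held 11, left a ratio of -2.54 in the class.

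In rod-like cells *Hmox1* was at 5.24 CPM (WT, 181 UMIs) and 2.76 CPM (mutant, 93 UMIs), with a ratio of -0.93 (-1.30 to -0.56). No WT rod-like cell held more than 3 of its UMIs. It was lower in the mutant library in each of the 4 rod-like clusters with enough UMIs, by 0.17 to 1.27 on the log2 scale. Cone-like cells, in contrast, held 3.13 and 2.88 CPM, a ratio of -0.12 (-0.81 to 0.57), and RPE-like cells 10.0 and 7.52 CPM (-0.41, -1.56 to 0.70). Müller-like cells held 5 WT UMIs and 0 mutant UMIs, and 3 UMIs would have been 8.90 CPM there, above the WT level of 6.71 CPM. Barcodes with 10 to 100 UMIs, which hold free RNA, carried 1 *Hmox1* UMI in the WT and 0 in the mutant library, too few to set a background level.

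*Hmox1* is also induced by cell stress outside this pathway, and 6 immediate early genes (*Fos*, *Jun*, *Junb*, *Egr1*, *Ier2*, and *Atf3*), chosen with their values known, differed in the same direction. They summed to 1100 CPM in the WT and 309.1 CPM in the mutant library over all cells, to 728 and 241 CPM in rod-like cells, and to 11685 and 6687 CPM in macrophage or microglia-like cells. They were also lower in the mutant library in cone-like cells (1537 and 323 CPM), where *Hmox1* did not differ beyond counting error. Their part in the *Hmox1* difference was not tested.

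*Nqo1* (chromosome 8, 107388225 to 107403206) encodes a quinone reductase and is often taken as the standard Nrf2 target. It was nearly restricted to the RPE-like cells, which held 147 of its 173 WT UMIs and 73 of its 109 mutant UMIs. In that class it was at 81.6 CPM in the WT (69.0 to 96.0) and 42.2 CPM in the mutant library (33.1 to 53.1). Rod-like cells held 0.35 and 0.33 CPM, cone-like cells 0.28 and 0.33 CPM, and macrophage or microglia-like cells 0 UMIs in either library, which allows up to 3.46 CPM (WT) and 8.66 CPM (mutant). The ratio was -0.87 (-1.23 to -0.52) over all cells and -0.95 (-1.38 to -0.54) in RPE-like cells. That difference rested on 1 cluster, however. A smaller RPE-like cluster of 97 WT and only 4 mutant cells, with a median of 8352 UMIs per WT cell, had *Nqo1* at 125.0 CPM in the WT library. The larger RPE-like cluster had 33.0 CPM in 230 WT cells and 41.3 CPM in 957 mutant cells, a ratio of 0.32 (-0.33 to 1.01). Without the smaller cluster the lower *Nqo1* of the mutant library was therefore gone. In rod-like cells, the only other class with at least 20 of its UMIs, the ratio was -0.09 (-1.42 to 1.22) from 12 WT and 11 mutant UMIs.

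**Figure D3:**
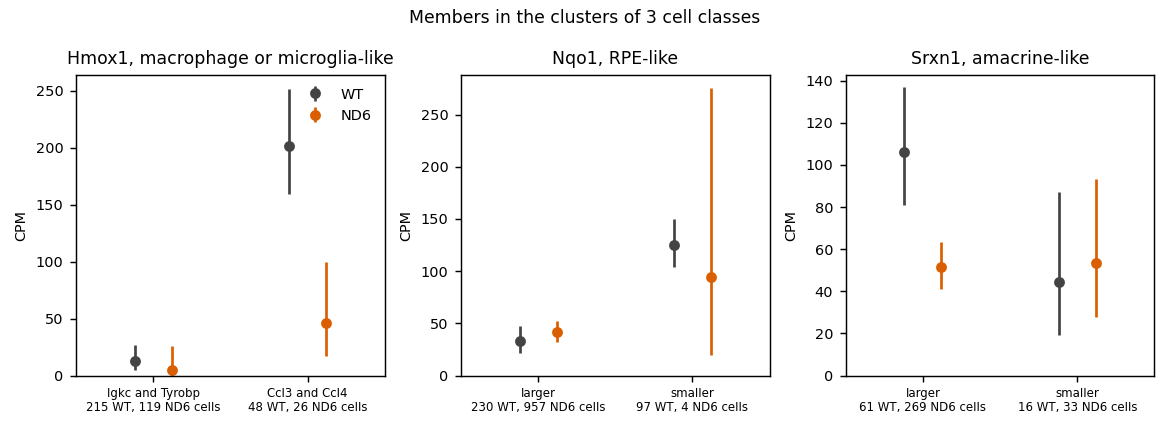
Level (CPM, linear from 0, with 95% Poisson intervals) of *Hmox1* in the 2 macrophage or microglia-like clusters, *Nqo1* in the 2 RPE-like clusters, and *Srxn1* in the 2 amacrine-like clusters, in the WT (grey) and mutant library (ND6, orange), with the cells of each library under the axis. *Hmox1* differs between libraries in the *Ccl3*- and *Ccl4*-led cluster, *Nqo1* differs between clusters more than between libraries, and *Srxn1* differs in the larger cluster with all cells included.

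The glutathione genes were close to equal in both libraries when summed over all cells. *Gclc* (chromosome 9, 77754535 to 77794485), the catalytic subunit of the enzyme that starts glutathione synthesis, was at 26.8 CPM (WT) and 27.6 CPM (mutant), a ratio of 0.04 (-0.06 to 0.14). Its regulatory partner *Gclm* (chromosome 3, 122245557 to 122270732) was at 34.8 and 34.4 CPM, a ratio of -0.02 (-0.11 to 0.07). *Gsr* (chromosome 8, 33652523 to 33698163), which reduces oxidized glutathione, was at 21.2 and 19.8 CPM, a ratio of -0.10 (-0.22 to 0.01). With 1158 or more UMIs per library, these 3 intervals lay within the fold in both directions. They cover counting error over all cells only, not the spread between mice or single classes.

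The 3 genes differed in where they were highest. *Gclc* was lowest in rod-like cells, at 23.9 CPM in the WT (22.3 to 25.6) and 24.9 CPM in the mutant library (23.2 to 26.6), and highest in amacrine-like cells, at 44.8 (30.9 to 63.0) and 54.8 CPM (44.8 to 66.3). Between those ends all neighbouring classes overlapped. *Gclm* was highest in RPE-like (93.9 CPM in the WT, 79.8 CPM in the mutant) and Müller-like cells (99.3 and 71.2 CPM), against 29.7 and 28.5 CPM in rod-like cells. *Gsr* was highest in RPE-like cells at 36.7 and 36.4 CPM, against 21.1 and 19.5 CPM in rod-like cells. In the larger RPE-like cluster alone, *Gclm* was at 55.4 CPM (WT) and 79.6 CPM (mutant), a ratio of 0.52 (0.03 to 1.03), while the class as a whole gave -0.23 (-0.57 to 0.10). The RPE comparison of *Gclm*, like that of *Nqo1*, thus depended on the smaller cluster, where *Gclm* was at 128.2 CPM in the WT library. In the unnamed cluster rich in *Glul* and *Nefl*, *Gclm* was at 30.7 CPM (WT) and 44.1 CPM (mutant), a ratio of 0.52 (0.17 to 0.88). Reads of Gm6061, which overlaps *Gclm* on its strand, could not be told from those of *Gclm*, though Gm6061 was no feature of the count table.

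*Slc7a11* (chromosome 3, 49892526 to 50443614) is the cystine importer that feeds glutathione synthesis, and it was the rarest of the 10 genes, with 21 WT and 33 mutant UMIs (0.44, -0.39 to 1.31). Müller-like cells held 13 WT and 5 mutant UMIs, 17.4 and 14.8 CPM, the highest level of any class in both libraries. The 9666 WT rod-like cells held 0 UMIs, which allows up to 0.09 CPM, and the 13148 mutant rod-like cells held 12 UMIs (0.36 CPM), for which the log2 ratio had a lower counting limit of 1.51. These 12 UMIs lay in 12 cells. The barcodes taken to hold free RNA carried 3 WT and 1 mutant UMIs (13.3 and 2.57 CPM), too few to set a background level. The part of free RNA in the rod-like difference was not tested. In RPE-like cells *Slc7a11* was at 0 UMIs in both libraries, which allows up to 1.67 CPM (WT) and 1.74 CPM (mutant).

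The thioredoxin and peroxiredoxin branch held the gene that differed most widely. *Srxn1* (chromosome 2, 152105516 to 152111376) encodes sulfiredoxin, which restores overoxidized peroxiredoxins. It was at 11.5 CPM in the WT and 17.2 CPM in the mutant library, from 628 and 1085 UMIs, a ratio of 0.58 (0.44 to 0.73). Rod-like cells held 10.2 CPM (WT) and 16.03 CPM (mutant), a ratio of 0.64 (0.45 to 0.84). Cone-like cells held 9.88 and 15.4 CPM, again a ratio of 0.64 (0.30 to 0.99), and bipolar-like cells 12.5 and 21.3 CPM, a ratio of 0.77 (0.07 to 1.53). The unnamed cluster rich in *Glul* and *Nefl* held 10.6 and 16.7 CPM (0.66, 0.07 to 1.28). The difference was therefore of like size in rod-like, cone-like, and bipolar-like cells. In rod-like cells it was spread over many cells, since no rod-like cell of either library held more than 4 of its UMIs. The other classes also held rod RNA. Rod markers summed to 55103 CPM (WT) and 65784 CPM (mutant) in cone-like and 28286 and 32180 CPM in bipolar-like cells. In rod-like cells they summed to 70101 and 79731 CPM. The part of rod RNA in the cone-like and bipolar-like ratios was not tested. Free RNA held 1 *Srxn1* UMI in the WT and 10 in the mutant library, 4.42 and 25.7 CPM, and the part of free RNA in the difference was not tested. Of 6 rod-like clusters, 5 had more *Srxn1* in the mutant library; the exception was the cluster led by *Malat1* (15.8 and 14.03 CPM, -0.17, -0.97 to 0.63).

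Amacrine-like cells had by far the most *Srxn1* of any class, and there the direction was opposite. The level was 91.0 CPM in the WT (67 UMIs in 77 cells) and 51.6 CPM in the mutant library (99 UMIs in 302 cells), a ratio of -0.82 (-1.28 to -0.35). A single WT cell held 24 of the 67 UMIs. Without the cell of most *Srxn1* in each library the levels were 64.2 and 49.7 CPM, a ratio of -0.37 (-0.90 to 0.19). So the high level of the class held in both libraries without these cells, while the difference between libraries did not exceed counting error. With all cells, the larger of the 2 amacrine-like clusters had 106.2 and 51.4 CPM (-1.05, -1.54 to -0.55), and the smaller one 44.3 and 53.5 CPM from 8 and 12 UMIs (0.27, -1.14 to 1.77), too few to say whether the clusters differed. The summed ganglion cell markers of the class, given above, were lower in the mutant library too, and their part in the result was not tested. The larger cluster had a median of 7354 UMIs per cell in the WT and 3801 in the mutant library. At the finer resolution of 2, an amacrine-like cluster held 0 WT and 131 mutant cells, with a median of 1369 UMIs. The part of depth and of such unmatched cells in the amacrine-like ratios of the 10 genes was not tested.

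*Txnrd1* (chromosome 10, 82833951 to 82897712) encodes cytosolic thioredoxin reductase. It was at 24.8 CPM (WT) and 29.2 CPM (mutant), a ratio of 0.24 (0.13 to 0.34), with 1351 and 1838 UMIs. It was higher in the mutant library in rod-like (0.25, 0.11 to 0.39), cone-like (0.29, 0.07 to 0.52), and bipolar-like cells (0.49, 0.01 to 1.00), and in each of the 6 rod-like clusters (0.01 to 0.51). As for *Srxn1*, it was lower in amacrine-like cells, with 47.6 and 27.7 CPM (-0.78, -1.43 to -0.12), a ratio of -0.69 (-1.37 to 0.02) without the top cell of each library, which no longer exceeded counting error. In the chemokine-rich cluster it was at 95.7 CPM (WT, 37 UMIs) and 15.2 CPM (mutant, 2 UMIs), a ratio of -2.65 (-5.75 to -0.70). The class as a whole held 46.1 and 23.1 CPM (-0.998, -2.30 to 0.12), and without that cluster the ratio was 2.16, from 3 WT and 6 mutant UMIs. *Eid3* overlaps *Txnrd1* on the same strand and was counted as a gene of its own.

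Class by class, few of the 10 genes were past the fold, and the share of all genes that were sets how this reads. In rod-like cells 1 of 9 genes with enough UMIs was higher (*Srxn1*) and 1 lower (*Hmox1*), where 19.4% of all genes were higher and 8.30% lower. In cone-like cells 1 of 8 was higher (*Srxn1*) and 0 lower, against 12.5% and 7.93% of all genes. In bipolar-like cells 1 of 7 was higher (*Srxn1*) and 0 lower, against 17.7% and 6.69%. In amacrine-like cells 2 of 7 were higher (*Nfe2l2* and *Keap1*) and 2 lower (*Txnrd1* and *Srxn1*), against 22.6% and 13.9%. In Müller-like cells 1 of 6 was higher (*Gsr*) and 1 lower (*Nfe2l2*), both with intervals that included a ratio of 1, against 16.2% and 22.1%. In macrophage or microglia-like cells 0 of 7 were higher and 2 lower (*Hmox1* and *Txnrd1*), against 20.2% and 18.1%. In RPE-like cells 0 of 9 were higher and 1 lower (*Nqo1*), against 13.3% in each direction. These counts of 0 to 2 were too small to set the 10 genes apart from all genes. The unnamed cluster rich in *Glul* and *Nefl* was not part of this tally. There *Keap1* (0.59, 0.26 to 0.94), *Gclm* (0.52, 0.17 to 0.88), and *Srxn1* (0.66, 0.07 to 1.28) were past the fold upward. *Hmox1* was past it downward (-0.59, -1.87 to 0.69). The share of all genes past the fold is not given for that cluster, so nothing is read from these genes as a set.

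Rod-like barcodes were also divided by their share of mtDNA-encoded UMIs, since the libraries differed in it, using a clustering in which the limit of 20% was not applied. Below 5% there were 1058 WT and 3137 mutant barcodes, from 5 to 10% 2899 and 5420, from 10 to 20% 6221 and 5517, and above 20% 6003 and 1157. *Srxn1* was higher in the mutant library in all 4 ranges. Its levels were 10.8 and 17.6 CPM below 5% (0.70, 0.35 to 1.06), 11.02 and 15.3 CPM from 5 to 10% (0.47, 0.17 to 0.77), 9.06 and 15.3 CPM from 10 to 20% (0.76, 0.39 to 1.12), and 7.15 and 16.6 CPM above 20% (1.22, 0.34 to 2.03). The ratio from 5 to 10% lay under the fold of 0.5, and the interval left out a ratio of 1 in every range. *Hmox1* was lower in the mutant library below 5% (5.73 and 3.52 CPM, -0.70, -1.33 to -0.08) and from 5 to 10% (6.64 and 2.42 CPM, -1.46, -2.04 to -0.91), while from 10 to 20% (-0.40, -1.23 to 0.40) and above 20% (-0.95, -6.35 to 1.77) the interval included a ratio of 1.

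In the WT library *Nfe2l2* went down from range to range with the mtDNA share, from 25.4 CPM below 5% to 21.7, 14.01, and 9.58 CPM above 20%. The mutant library gave 29.95, 24.0, 15.5, and 14.7 CPM. The totals behind these CPM include the mtDNA-encoded UMIs that define the ranges, and their part in the decline was not tested. Nor was the decline particular to *Nfe2l2*. Between the lowest and the highest range of the WT library, *Gclc* went from 28.3 to 13.1 CPM and *Gclm* from 33.4 to 19.8 CPM. *Txnrd1* went from 29.4 to 11.7 CPM and *Gsr* from 23.0 to 13.1 CPM. Within each range the ratio of *Nfe2l2* was between 0.14 and 0.61, with an interval that included a ratio of 1. For *Keap1* the WT levels were 41.1, 33.6, 30.2, and 20.8 CPM and the mutant levels 42.4, 37.7, 39.5, and 36.2 CPM. The ratio of *Keap1* was 0.04 (-0.15 to 0.24) below 5% and 0.16 (-0.01 to 0.34) from 5 to 10%. It was 0.39 (0.18 to 0.60) from 10 to 20% and 0.80 (0.24 to 1.33) above 20%. The difference between ranges was not tested. No median ratio of all genes is given for a range, so these ratios, and those of *Srxn1* and *Hmox1* by range, lack that baseline. Barcodes above 20% were not part of the rod-like ratio of 0.19 given above. Median UMIs per barcode went down as well, from 3372 to 1149 in the WT and from 1382 to 634 in the mutant library between the lowest and the highest range, and the part of depth was not tested.

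**Figure D4:**
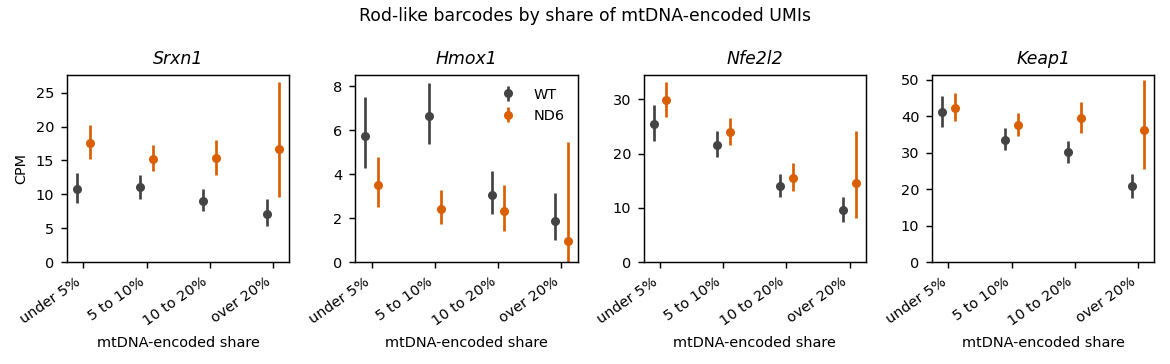
Level (CPM, linear from 0, with 95% Poisson intervals) of 4 genes in rod-like barcodes by share of mtDNA-encoded UMIs, in the WT (grey) and mutant library (ND6, orange). *Srxn1* is higher in the mutant library in every range, *Hmox1* is lower in the 2 lowest ranges beyond counting error, and *Nfe2l2* declines with the share in both libraries.

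Of 10 other genes that regulate Nrf2, 4 were above a ratio of 1 over all cells and 6 below, with a median of -0.12 beside 0.07 for all genes. Past the fold were 1 upward and 2 downward, beside 21.6% and 8.78% of all genes. The partner *Mafg*, a small Maf protein, was past the fold upward, at 35.2 CPM (WT) and 54.3 CPM (mutant), a ratio of 0.62 (0.54 to 0.71). It was higher in rod-like (0.66), cone-like (0.56), amacrine-like (0.75), and RPE-like cells (0.77). The interval included a ratio of 1 in bipolar-like (-0.20, -0.50 to 0.11), Müller-like (0.14, -0.71 to 0.95), and macrophage or microglia-like cells (-0.06, -0.64 to 0.50), and the difference between classes was not tested. *Cul3*, the scaffold of the ligase that Keap1 serves, was past the fold downward at 398.2 and 279.2 CPM (-0.51, -0.54 to -0.48), with -0.61 in rod-like cells. The ring subunit of the same ligase, *Rbx1*, was at 362.5 and 395.8 CPM (0.13, 0.10 to 0.15). *Maff*, another small Maf gene, was past the fold downward with 75 WT and 11 mutant UMIs (-2.98, -4.04 to -2.06), and its highest level, 54 CPM in the WT and 9 CPM in the mutant library, was in macrophage or microglia-like cells. In that class 3 UMIs would be 8.66 CPM in the mutant library, so the mutant level rested on very few UMIs.

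*Sqstm1*, whose product p62 sequesters Keap1 and is itself an Nrf2 target, was at 25.8 and 21.6 CPM (-0.26, -0.37 to -0.15) over all cells. In macrophage or microglia-like cells it was at 282 CPM (WT) and 58 CPM (mutant), a ratio of -2.29, beside -2.26 for *Hmox1*. In that class 5 of the 10 regulators were past the fold downward and 0 upward, beside 18.1% and 20.2% of all genes, with a median of -0.49 for the list and 0.04 for all genes. The part of the chemokine-rich cluster, with 48 WT and 26 mutant cells, in these values was not tested. *Btrc*, a receptor of a second ligase for Nrf2, had a ratio of -0.26 (-0.33 to -0.19), *Mafk* -0.22 (-0.50 to 0.06), and *Bach1*, the repressor of *Hmox1*, -0.02 (-0.14 to 0.09). *Gsk3b*, the kinase that marks Nrf2 for that ligase, was at 0.06 (0.03 to 0.08), and the related factor *Nfe2l1* at 0.07 (0.00 to 0.13).

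Of 27 further targets, 25 had at least 20 UMIs, with 16 above and 9 below a ratio of 1 and a median of 0.07, equal to that of all genes. Past the fold were 1 upward and 4 downward, beside 21.6% and 8.78% of all genes. The 1 upward was *Tkt*, the pentose phosphate enzyme transketolase (31.4 and 44.7 CPM, 0.51, 0.42 to 0.60). The next highest were *Txn1*, thioredoxin, which just missed the fold (54.4 and 76.7 CPM, 0.495, 0.43 to 0.56), *Gstm1*, a glutathione transferase (0.45, 0.24 to 0.68), *Fth1*, ferritin heavy chain (0.39, 0.37 to 0.40), and *Blvrb*, a biliverdin reductase (0.30, 0.05 to 0.55). Of the 4 downward, 3 were *Gstp1* (107 and 73.8 CPM, -0.53, -0.59 to -0.47), *Gsta4* (20.3 and 14.2 CPM, -0.51, -0.64 to -0.39), and *Mgst1* (-0.69, -1.02 to -0.36). These encode glutathione transferases or a microsomal relative, while the transferase *Gstm1*, given above, went the other way. The remaining gene downward was *Osgin1*, with 16 and 9 UMIs (-1.04, -2.40 to 0.23). *Taldo1* (-0.19, -0.22 to -0.15) and *Prdx1* (-0.17, -0.21 to -0.12) were the next lowest among genes with at least 100 UMIs. *Gpx2* had 0 UMIs in both libraries, and *Aldh3a1* 0 WT and 1 mutant UMI.

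By class, the further targets had a median ratio of 0.12 in rod-like, 0.10 in cone-like, 0.07 in bipolar-like, -0.10 in amacrine-like, -0.07 in Müller-like, 0.03 in macrophage or microglia-like, and -0.22 in RPE-like cells, with all genes at 0.02, -0.01, 0.08, 0.05, -0.05, 0.04, and -0.001. In rod-like cells 4 of 23 were past the fold upward and 0 downward, beside 19.4% and 8.30% of all genes. In RPE-like cells 0 of 24 were past it upward and 8 downward, beside 13.3% of all genes in each direction. The smaller RPE-like cluster, with 97 of the 327 WT and 4 of the 961 mutant cells, was part of this class, and its part in these counts was not tested.

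**Figure D5:**
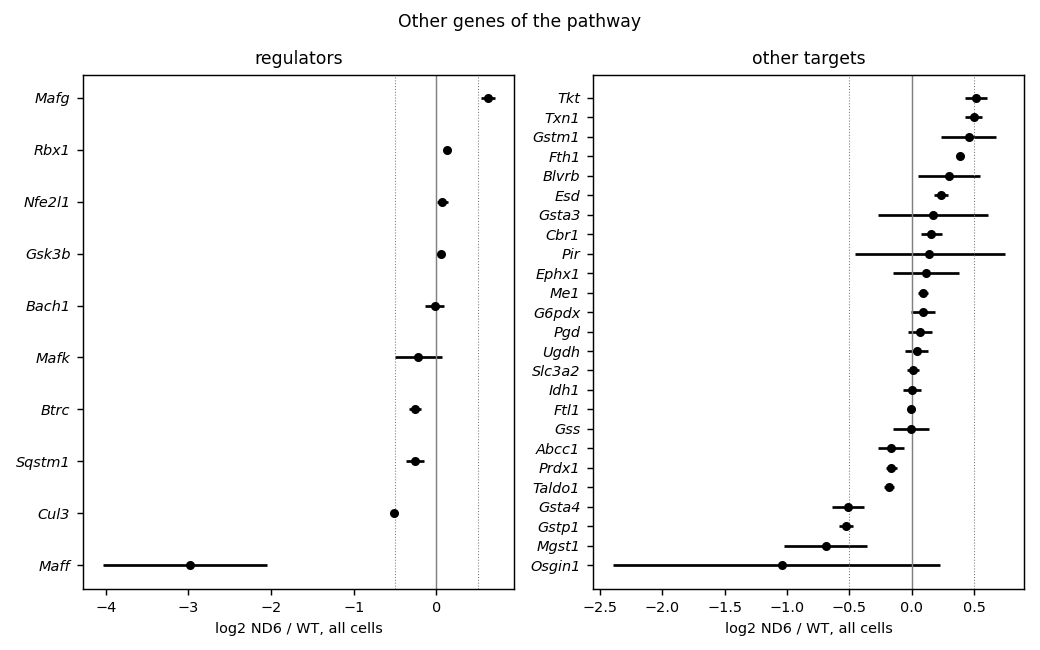
Log2 ratio of the mutant over the WT library over all cells (x axis) for 10 other regulators (left) and the further targets with at least 20 UMIs (right), sorted by ratio. Points are ratios of CPM, bars 95% counting intervals, and dotted lines mark 0.5 in either direction; *Mafg* lies highest and *Maff* lowest among the regulators, and *Tkt* highest and *Osgin1* lowest among the targets.

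The genes with the most similar profiles were sought among 10217 genes with at least 500 UMIs, by Pearson's r of log2(CPM + 10) over the 8 named classes of both libraries, 16 values that share libraries and depth within a library. Closest to *Nfe2l2* were *Snx5* (r = 0.96), *Gna12* (0.92), and *Cmtm6* (0.92), and closest to *Keap1* were *Myo18a* (0.92), *Tango2* (0.92), and *Ppm1g* (0.91). For *Hmox1*, the gene of the widest range on that scale, they were *Rap1b* (0.95), *Ppp1r15a*, a regulatory subunit of the phosphatase that acts on eIF2α (0.93), and *Eif4a1*, a helicase of translation initiation (0.93). These values describe the profiles of these 2 libraries.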

How the data were processed

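Droplet-based 3′ scRNA-Seq of 1 WT and 1 ND6 mutant retina library was analysed. The authors aligned reads to mm10 with Cell Ranger 3.0.2 and deposited unnormalized UMI counts of every gene in every barcode, 77958836 (WT) and 80358255 (mutant) in all. Barcodes were filtered with the limits in the study's methods. Cells were clustered by Leiden on 3000 variable genes, 30 principal components, and 20 neighbours at resolution 1 (scanpy 1.11.5, leidenalg 0.10.2), leaving out mtDNA-encoded genes and the members and lists reported. The integration and regressions of the study were not repeated, so class names are rebuilt ones. A cluster needed at least 3 markers raised 2-fold, and a first marker among its leading 10 genes from that class; the rule was settled after the clusters were seen. Clusters short of 3 raised markers were called rod-like if at least 3 rod markers were raised over the other named clusters. Scrublet marked 0 cells and so did not work; doublets were kept. UMIs were summed per library and class. A count of 0 allows up to 3 counts. With 1 library per genotype, no test, standard error, or p-value was computed. The ratios were tested on simulated data.

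The 10 genes, lists, and comparisons were chosen with earlier results of these data known. Named from the lists were the 5 highest and 5 lowest ratios over all cells among genes with at least 100 UMIs and those past the fold; others were named after their values were seen. Positions are from GENCODE vM21 (mm10).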

Additional observations from a re-analysis of the deposited data

Results flagged for a closer look

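*Srxn1* was past the fold in opposite directions in different classes, with intervals that left out a ratio of 1: 0.64 in rod-like cells, 0.64 in cone-like cells, 0.77 in bipolar-like cells, and -0.82 in amacrine-like cells. With 1 library per genotype the difference between classes was not tested. Without the cell of most *Srxn1* UMIs in each library, the ratio in amacrine-like cells was -0.37 (-0.90 to 0.19), and those in rod-like, cone-like, and bipolar-like cells were 0.65, 0.66, and 0.84.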

How the results depend on the processing

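No paired analysis was possible because each genotype had 1 library. The count of genes past the fold over all cells, 1 higher and 2 lower, became 2 higher with no mtDNA limit, without the highest 10% of doublet scores, with the class shares of the WT library, with the mean over cells of per-cell CPM (then 1 lower), and without the cell of most UMIs of each gene. The median of the regulators, -0.12, was 0.043 with no mtDNA limit and -0.021 at a minimum of 100 UMIs. Past the fold were, with per-cell means, 2 of 8 genes in cone-like, 3 of 7 in bipolar-like, and 5 of 6 in Müller-like cells. In macrophage or microglia-like cells there were 5 of 7, and in RPE-like cells 3 of 9. Bipolar-like cells had 2 with no mtDNA limit, at 1000 UMIs per barcode, and without the highest doublet scores, and 3 without the top cell. RPE-like cells had 3 at 1000 UMIs, 2 without the highest doublet scores, 2 at resolution 2, and 3 without the smaller cluster, and macrophage or microglia-like cells had 1 without the chemokine-rich cluster. For none of these settings is the share of all genes past the fold given, so these counts do not set the 10 genes apart. The sign turned for *Nqo1* over all cells with per-cell means (0.41), *Nqo1* in RPE-like cells without the smaller cluster (0.32), and *Txnrd1* in macrophage or microglia-like cells without the chemokine-rich cluster (2.16). The cause was not tested, apart from the clusters and cells left out, which were chosen after seeing the data. No other ratio past the fold changed sign. Per-cell means moved the median of all genes to 0.22 and no mtDNA limit to 0.17. Of 573 ratios recomputed, 544 stayed within the counting interval of the reported value. The limits are 1 library per genotype, counting error as the only error measured, and few UMIs for *Slc7a11*, *Nqo1* outside RPE-like cells, and Müller-like cells.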
